A study of Neurospora crassa with 6 samples.

Results

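The genes described here are the 15 Neurospora crassa genes, of 10559 in the table, whose symbols start with one of 12 names given to ion, metal and phosphate transport genes and go on with a number. They are tcu-1, tcu-2 and tcu-3 (copper), tzn-1 and tzn-2 (zinc), nca-1, nca-2 and nca-3 (calcium), pma-1 (protons), ena-1 (sodium), hak-1 (potassium) and pho-2, pho-3, pho-4 and pho-5 (phosphate). The other 5 starts (trm, nha, cax, trk and ph, each followed by a hyphen and a number) matched 0 genes. pho-2 and pho-3 are known as the repressible alkaline and acid phosphatase genes, so those symbols stand for enzymes that free phosphate and not for membrane transporters.

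RNA with poly(A) tails was sequenced from hyphae, the growing filaments of this mould, of a strain whose label gives deletions of wc-1, vvd and cry. wc-1 encodes the White Collar-1 photoreceptor and transcription factor, vvd the photoreceptor VIVID and cry a cryptochrome. After 2 weeks on minimal slants the strain was cultivated for 45 min in 2% glucose medium in the dark, under 1000 lux or under 5000 lux, with 2 libraries per condition, and all 6 libraries carry the same strain label, although each of the 3 genes had reads in every library (values below). No library of a strain with these genes intact was analysed here, so each comparison is between light conditions within the strain labelled as deleted for the 3 genes. Nothing in the labels says whether replicates were grown separately, and p-values therefore measure a spread between these libraries that may be technical.

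Fungal hyphae take up mineral nutrients against steep gradients. The plasma membrane proton pump energises secondary transporters, P-type ATPases move calcium and sodium out of the cytosol, and families of metal carriers import copper and zinc. In Neurospora, phosphate shortage induces phosphatases and high-affinity phosphate permeases through the transcription factor encoded by nuc-1.

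Levels are given as RPKM, reads per kilobase of gene scaled to the reads of the library. The RPKM denominators were 21418640 to 28255299 reads per library, recovered from the steps between the deposited values and reference gene lengths. The 15 genes drew 50158 to 70257 reads per library, which was 0.292% to 0.325% of the reads on genes. wc-1 had 6.31 to 9.04 RPKM, vvd 1.95 to 3.44 and cry 1.59 to 2.56, so none of the 3 genes labelled as deleted was at 0. Where along each gene those reads fall was not analysed here. vvd fell by 0.51 on the log2 scale at 1000 lux against darkness (SE 0.15, limma adjusted p = 0.0473), a call lost whichever library was left out (-0.55 to -0.46). As markers of conidia, the spores that a hyphal sample can hold, con-6, con-8, con-10, con-13, eas and fl summed to 204 to 247 RPKM in darkness, 113 to 119 at 1000 lux and 195 to 267 at 5000 lux, with 0 of the 6 at 0 in every library of a condition. eas, the hydrophobin gene, made up most of each sum. Of the 4 markers tested, limma called con-10 higher and eas lower at 1000 lux against darkness, none at 5000 lux against darkness (1 higher and 1 lower at an unadjusted p under 0.05, 0 with voom), and eas higher and con-8 lower at 5000 than at 1000 lux. In such bulk RNA, fewer cells of a type and less RNA per cell cannot be told apart.

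The 15 genes ranked from 151 to 8119 of 10559 genes by mean level. pma-1, which encodes the plasma membrane proton pump, averaged 426 RPKM over the 6 libraries and was the highest of the 15. Next came tcu-2 at 66.8 RPKM (rank 950), then nca-2 at 40.3, tcu-3 at 37.5, hak-1 at 36.0, nca-1 at 34.2, tcu-1 at 31.9 and ena-1 at 29.3 RPKM. These last 6 lay close together, and the libraries of neighbours in this order overlapped. pho-3 at 11.4, tzn-2 at 9.05, nca-3 at 8.37 and tzn-1 at 6.08 RPKM followed, and pho-2 was at 2.12. The phosphate permease genes pho-4 and pho-5 were lowest at 0.564 and 0.533 RPKM.

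**Figure D1:**
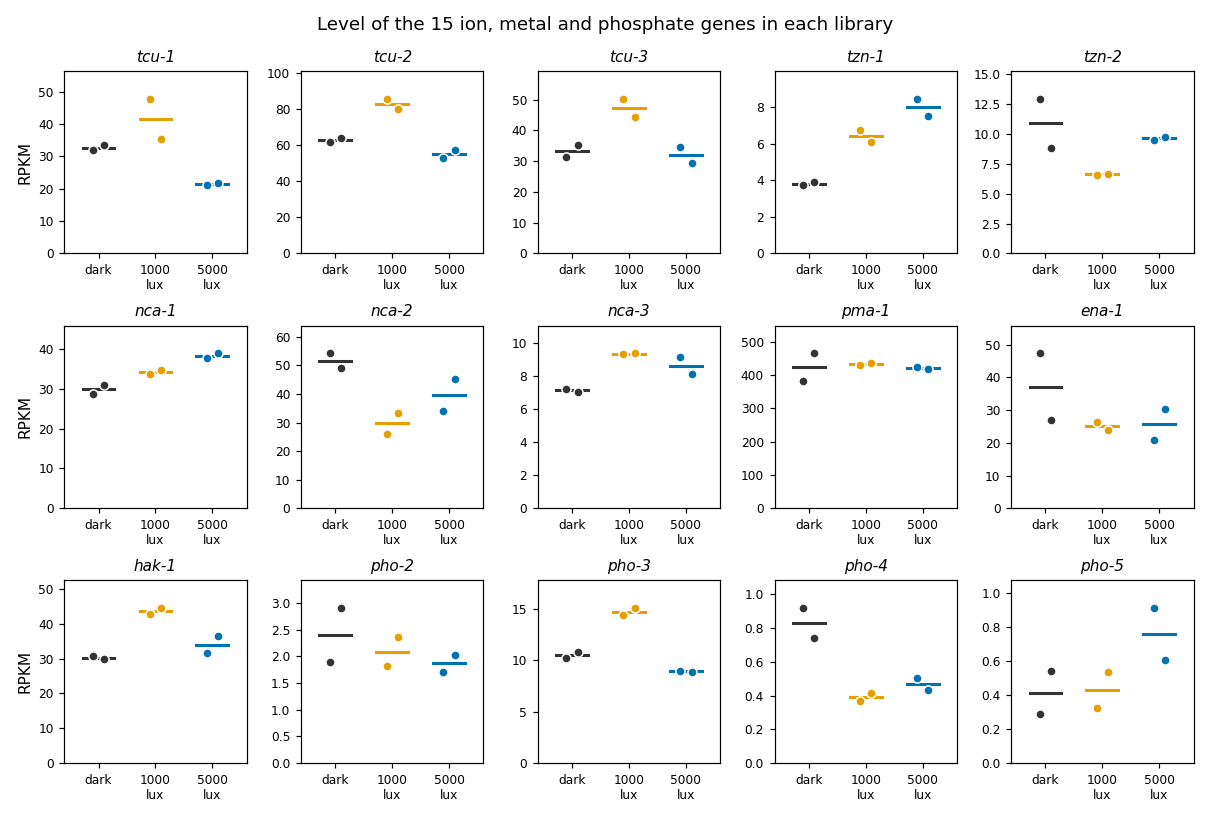
RPKM (vertical axis, from 0, with its own scale in each panel) of the 15 genes in the dark, 1000 lux and 5000 lux libraries; each point is 1 library and each line the mean of the 2 libraries of a condition. All 3 tcu genes have their highest libraries at 1000 lux, tzn-1 is lowest in the dark, and the dark libraries of ena-1, at 47.3 and 27.0 RPKM, lie far apart.

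The test took genes reaching 1 RPKM in 2 or more libraries, which left 13 of the 15 and set aside pho-4 and pho-5. It was limma on log2(RPKM + 1) over 7841 genes, and a gene is called here when its Benjamini-Hochberg adjusted p over all of them is under 0.05. Fold changes below are differences on that log2 scale and understate the change of low genes. Of the 13 genes, 9 were called in at least 1 of the 3 comparisons, with 14 calls in all; ena-1, nca-3, pho-2 and pma-1 were called in none.

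At 1000 lux against darkness, which asks how the moderate light differs from no light in this strain, 5 of the 13 genes were higher (hak-1, pho-3, tcu-2, tcu-3 and tzn-1) and 2 were lower (nca-2 and tzn-2). These counts are 38.5% and 15.4% of the genes tested here, where 9.13% and 7.82% of all genes tested were called higher and lower. The libraries of both conditions did not overlap in 11 of the 13, or 84.6%, against 58.8% of all genes tested. The median log2 fold change of the 13 was 0.32, and that of all genes tested was 0.00078. The summed level of the conidial markers was lower at 1000 lux than in darkness, a sum carried by eas (mean 192.9 RPKM in darkness and 73.3 at 1000 lux). con-10 (1.10 and 2.99 RPKM), con-8 (20.6 and 29.5 RPKM, not called) and con-6 (0.469 and 0.623 RPKM) had higher means at 1000 lux. fl (10.35 and 9.04 RPKM, not called) and con-13 (0.316 and 0.135 RPKM) had lower means there, as eas did. con-6 and con-13 were below the minimum for the test. The part of these markers in the counts was not tested. Without 1000 lux replicate 1 fewer of the 13 were called in both directions. This also held without dark replicate 1, and without 1000 lux replicate 2 fewer were called lower. Calls over all genes tested fell in each of these fits too. Without dark replicate 2 more of the 13 were called lower, as were more of all genes tested.

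At 5000 lux against darkness 2 of the 13 genes were higher (nca-1 and tzn-1) and tcu-1 alone was lower. All genes tested were called higher in 6.7% and lower in 2.92% of cases, against 15.4% and 7.69% here. The libraries did not overlap in 8 of the 13, or 61.5%, against 52.9% of all genes tested. The median of the 13 was -0.14, and that of all genes tested 0.023. Fewer of the 13 were called higher without dark replicate 1 or any of the light libraries, and fewer lower without either 5000 lux library. Over all genes tested these calls fell too, except the higher calls without dark replicate 1, which kept their number.

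Between 5000 and 1000 lux, the comparison of both intensities with each other, 4 of the 13 genes were lower at 5000 lux (tcu-1, tcu-2, tcu-3 and pho-3), or 30.8%, where 1.36% of all genes tested were lower. None of the 13 was called higher by limma, where 1.66% of all genes tested were; at an unadjusted p under 0.05, 3 were higher and 5 lower (9.42% and 6.16% of all genes tested), and limma voom on the recovered reads called 0 higher and 5 lower (2.59% and 1.75% of all genes). The libraries did not overlap in 11 of the 13, against 48.6% of all genes tested. The comparison shares its 1000 lux libraries with the first one, so opposite values of a gene in them are not independent. Without any of the light libraries fewer of the 13 were called lower, and calls over all genes tested fell too. Without either dark library more of the 13 were called higher, as were more of all genes tested.

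**Figure D2:**
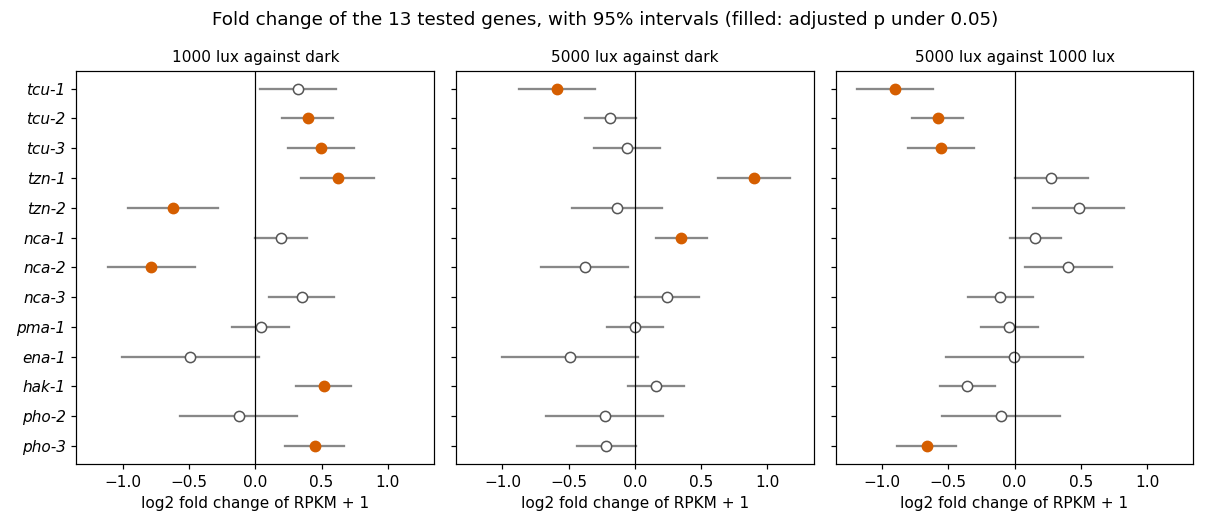
Log2 fold change of RPKM + 1 (horizontal axis) of the 13 tested genes in the 3 comparisons, with limma 95% intervals; filled points have an adjusted p under 0.05 over all 7841 genes. The 3 tcu genes lie right of 0 at 1000 lux against dark and left of 0 at 5000 lux against 1000 lux, and tzn-1 lies right of 0 in all 3 panels.

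The copper genes had their highest levels at 1000 lux. Copper carriers of this kind sit in membranes and pass copper ions into the cytosol, and tcu-1 is known as the high-affinity copper uptake gene of Neurospora. tcu-1 (NCU00830) gave 32.1 and 33.4 RPKM in the dark libraries, 47.9 and 35.3 under 1000 lux and 21.2 and 21.7 under 5000 lux. The 3 conditions did not overlap, and 5000 lux had the lowest values.

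For tcu-1 the step from 1000 to 5000 lux had a log2 fold change of -0.91 (SE 0.13, limma adjusted p = 0.00833), rank 37 from the lowest among 7841 genes. Mean RPKM at 5000 lux was 0.517 times that at 1000 lux. Against darkness the 5000 lux value was -0.59 (SE 0.13, limma adjusted p = 0.0203), and the 1000 lux value was 0.32 (SE 0.13, limma adjusted p = 0.121), which did not pass. The libraries at 1000 lux differed by 0.43 on the log2 scale, more than in 95.5% of all genes tested. Without 1000 lux replicate 2 the 1000 lux value was 0.53 and was called; without 1000 lux replicate 1 it was 0.11. The step from 1000 to 5000 lux lost its call without 5000 lux replicate 1 (-0.89) and without the variance trend (limma adjusted p = 0.0602). The call against darkness was lost without dark replicate 2 (-0.56), without either 5000 lux library (-0.57 and -0.60), with no filter on low values (limma adjusted p = 0.0553) and without the variance trend (limma adjusted p = 0.0615).

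tcu-2 (NCU03281), with a mean of 66.8 RPKM the most abundant of the copper genes, stood at 61.4 and 64.0 RPKM without light, 85.7 and 79.8 under 1000 lux, then 52.6 and 57.4 under 5000 lux. Again the 1000 lux libraries were highest, the 5000 lux libraries lowest, and no conditions overlapped. It was 1.32 times darkness at 1000 lux (log2 fold change 0.39, SE 0.086, limma adjusted p = 0.0136) and lower at 5000 than at 1000 lux (-0.58, SE 0.086, limma adjusted p = 0.009). At 5000 lux against darkness it had -0.19, with a 95% interval of -0.38 to 0.0067, and was not called. The first call was lost without 1000 lux replicate 1 (0.34), and the step between the light intensities without either 1000 lux library (-0.53 and -0.63), without 5000 lux replicate 1 (-0.52) and without the variance trend (limma adjusted p = 0.0632). tcu-2 overlaps NCU03280 and NCU15031 in the reference annotation, and whether reads from these genes were counted for tcu-2 is not known.

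tcu-3 (NCU07428) reached 50.3 and 44.4 RPKM under 1000 lux and 34.6 and 29.3 under 5000 lux, from dark values of 31.5 and 35.1. Its 1000 lux libraries stood above the other 4, while dark and 5000 lux overlapped. The log2 fold change was 0.49 at 1000 lux against darkness (SE 0.11, limma adjusted p = 0.0147), a call lost without dark replicate 1 (0.42) or 1000 lux replicate 1 (0.41). From 1000 to 5000 lux it was -0.55 (SE 0.11, limma adjusted p = 0.03), a call lost without each of the 4 light libraries in turn, with values from -0.67 to -0.44, with no filter on low values (limma adjusted p = 0.0813) and without the variance trend (limma adjusted p = 0.106). At 5000 lux against darkness the difference was -0.06 (95% interval -0.31 to 0.19). Summed over the 3 copper genes, the libraries held 125 and 133 RPKM without light, 184 and 159 under 1000 lux, and 109 and 108 under 5000 lux.

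The zinc genes moved in opposite directions at 1000 lux. tzn-1 and tzn-2 encode membrane zinc carriers characterised in Neurospora. tzn-1 (NCU07621) gave 3.75 and 3.89 RPKM in the dark libraries, 6.73 and 6.10 under 1000 lux and 8.47 and 7.51 under 5000 lux. No conditions overlapped, with darkness lowest and 5000 lux highest. Behind these values lay 186 and 242 reads without light, 338 and 348 under 1000 lux, and 484 and 354 under 5000 lux.

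tzn-1 was 2.09 times darkness at 5000 lux (log2 fold change 0.90, SE 0.12, limma adjusted p = 0.00305), which ranked 48 from the highest among 7841 genes, and this call was kept without each library in turn (0.82 to 0.98). At 1000 lux it was 1.68 times darkness (0.62, SE 0.12, limma adjusted p = 0.00857), a call lost without 1000 lux replicate 1 (0.56). Because of its low level the size depends on the pseudocount. With 0.1 RPKM in place of 1 RPKM the 5000 lux value was 1.04, and with 5 RPKM it was 0.56, called both times. Between 5000 and 1000 lux the difference was 0.28 (95% interval 0.0028 to 0.55, limma adjusted p = 0.314) and was not called, so the rise between both light intensities did not pass the test. The 3 genes with the highest Pearson correlation with tzn-1 over the 6 libraries, among 7840 compared, were NCU01939, NCU09210 and NCU07724 at r = 0.998, 0.997 and 0.997, given as a description of libraries that share their conditions. The correlation ignores the size of a change. At 1000 and 5000 lux against darkness, NCU09210 had 0.77 and 1.11, both called. NCU07724 had 0.26 and 0.35, called at 5000 lux only, and NCU01939 had 0.17 and 0.25, neither called.

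tzn-2 (NCU11414) stood at 12.96 and 8.83 RPKM without light, 6.54 and 6.69 under 1000 lux, then 9.53 and 9.78 under 5000 lux. The 1000 lux libraries were the lowest of the 6, and the wide spread in darkness took in both 5000 lux values. At 1000 lux it was 0.607 times the dark level (log2 fold change -0.62, SE 0.15, limma adjusted p = 0.0223). Without dark replicate 1, the library with the high value, the difference was -0.37 and not called; the call was also lost without either 1000 lux library (-0.61 and -0.64) and with no filter on low values (limma adjusted p = 0.0594). At 5000 against 1000 lux the difference was 0.48 (95% interval 0.14 to 0.83, limma adjusted p = 0.144), not called over all 3 groups and called without dark replicate 1 or 2 or with only the groups compared (limma adjusted p from 0.0282 to 0.0308). The ratio of tzn-1 to tzn-2 RPKM was 0.289 and 0.441 without light, 1.03 and 0.912 under 1000 lux, and 0.889 and 0.768 under 5000 lux, so every light library lay above both dark libraries.

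Among the calcium pumps, nca-2 was lower and nca-1 higher in light, each called at 1 intensity. nca-1 is known as the endoplasmic reticulum type of calcium ATPase, while nca-2 and nca-3 belong to the type that moves calcium out of the cell or into the vacuole. nca-2 (NCU04736) reached 25.9 and 33.4 RPKM under 1000 lux and 34.2 and 45.3 under 5000 lux, from dark values of 54.2 and 48.9. Both dark libraries stood above all 4 light libraries. At 1000 lux it was 0.576 times darkness, the lowest log2 fold change of the 13 in that comparison at -0.79 (SE 0.15, limma adjusted p = 0.00659) and rank 122 from the lowest among 7841 genes. The call was lost without 1000 lux replicate 1 (-0.61). At 5000 lux against darkness the difference was -0.38 (95% interval -0.71 to -0.049, limma adjusted p = 0.143) and was not called, and its libraries differed within both light conditions by 0.35 and 0.39 on the log2 scale.

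nca-1 (NCU03305) gave 28.8 and 30.9 RPKM in the dark libraries, 33.8 and 34.8 under 1000 lux and 37.7 and 38.9 under 5000 lux. The 3 conditions did not overlap and replicates were close. The 5000 lux libraries were 1.28 times the dark level (log2 fold change 0.35, SE 0.087, limma adjusted p = 0.0326), and 1000 lux had 0.19 (95% interval 0.00091 to 0.39, limma adjusted p = 0.16), not called. The 5000 lux call was lost without each library other than dark replicate 2, with values from 0.30 to 0.37. It was also lost without the variance trend (limma adjusted p = 0.0739) and with only the groups compared (limma adjusted p = 0.0515). nca-1 overlaps NCU03304.

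nca-3 (NCU05154) stood at 7.20 and 7.06 RPKM without light, 9.34 and 9.37 under 1000 lux, then 9.13 and 8.12 under 5000 lux. All 4 light libraries were above both dark ones, and the log2 fold changes were 0.35 at 1000 lux (SE 0.11, limma adjusted p = 0.0544) and 0.24 at 5000 lux (SE 0.11, limma adjusted p = 0.204). Neither was called; with median-of-ratios scaling the 1000 lux value passed (0.36, limma adjusted p = 0.0432), as it did with voom on the recovered reads (0.39, limma adjusted p = 0.0244).

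Of the pumps and carriers of protons, sodium and potassium, hak-1 was called and pma-1 and ena-1 were not. hak-1 (NCU00790) encodes a high-affinity potassium transporter. It reached 42.9 and 44.5 RPKM under 1000 lux and 31.6 and 36.4 under 5000 lux, from dark values of 30.7 and 29.9. The 1000 lux libraries were highest and close to each other. hak-1 was 1.44 times darkness at 1000 lux (log2 fold change 0.52, SE 0.094, limma adjusted p = 0.00568), and the call was kept without each library in turn (0.49 to 0.54). From 1000 to 5000 lux it had -0.36 (SE 0.094, limma adjusted p = 0.0825), not called; with median-of-ratios scaling it passed (-0.39, limma adjusted p = 0.0499), as it did with voom (-0.37, limma adjusted p = 0.0317).

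pma-1 (NCU01680), the proton pump gene, gave 382 and 465 RPKM in the dark libraries, 430.2 and 438 under 1000 lux and 425 and 418 under 5000 lux. The 4 light libraries all lay between the dark ones. Its differences were 0.04 at 1000 lux (95% interval -0.17 to 0.26) and 0.00027 at 5000 lux (95% interval -0.21 to 0.21), none called. Between 29108 and 44429 reads per library lay behind these values, so the spread in darkness is far above counting error. pma-1 overlaps NCU01681.

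ena-1 (NCU05046), whose product is a sodium-exporting ATPase, stood at 47.3 and 27.0 RPKM without light, 26.4 and 24.01 under 1000 lux, then 20.8 and 30.4 under 5000 lux. Dark replicate 1 stood above the other 5 libraries. The dark libraries differed by 0.79 on the log2 scale, more than in 99.0% of all genes tested, with 5108 and 3655 reads behind them. The log2 fold changes against darkness were -0.49 at 1000 lux (95% interval -1.01 to 0.025) and -0.49 at 5000 lux (95% interval -1.01 to 0.024), neither called. Without dark replicate 2 both were -0.88 and called (limma adjusted p = 0.0143 and 0.0239); without dark replicate 1 they were -0.096 and -0.098.

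**Figure D3:**
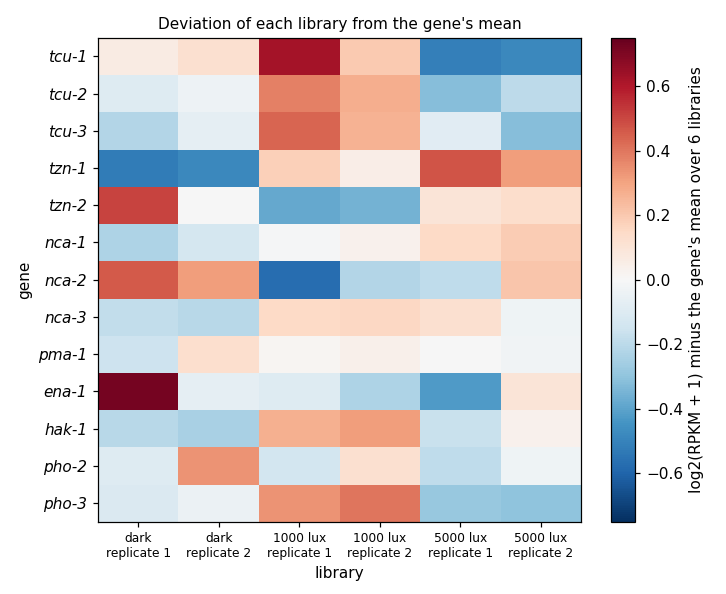
Difference of each library's log2(RPKM + 1) from the gene's mean over the 6 libraries (colour scale, red above and blue below), for the 13 tested genes (rows) and 6 libraries (columns). The columns at 1000 lux are red for the tcu genes, hak-1 and pho-3, and dark replicate 1 is the deepest red of ena-1.

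Among the phosphate genes, pho-3 was called and the others lay low. pho-3 (NCU08643), the repressible acid phosphatase gene, reached 14.4 and 15.1 RPKM under 1000 lux and 8.96 and 8.85 under 5000 lux, from dark values of 10.3 and 10.8. The 3 conditions did not overlap, with 1000 lux highest and 5000 lux lowest, the same order as tcu-1 and tcu-2. pho-3 was 1.40 times darkness at 1000 lux (log2 fold change 0.45, SE 0.099, limma adjusted p = 0.0143). At 5000 lux it was 0.606 times the 1000 lux level (-0.66, SE 0.099, limma adjusted p = 0.00922), and against darkness it had -0.22 (95% interval -0.44 to 0.0047), not called. Without either 1000 lux library the call against darkness was lost (0.48 and 0.42), and without each of the 4 light libraries in turn the step between the light intensities was lost (-0.70 to -0.63).

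pho-2 (NCU01376), the repressible alkaline phosphatase gene, gave 1.89 and 2.90 RPKM in the dark libraries, 1.81 and 2.36 under 1000 lux and 1.71 and 2.03 under 5000 lux. All conditions overlapped. Its log2 fold changes were -0.13 (95% interval -0.57 to 0.32) and -0.23 (95% interval -0.67 to 0.21) against darkness, wide intervals from 98 to 194 reads per library.

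Both phosphate permease genes were below the minimum for the test. pho-4 (NCU09564), which overlaps NCU12035, stood at 0.917 and 0.741 RPKM without light, 0.370 and 0.415 under 1000 lux, then 0.505 and 0.435 under 5000 lux. Its dark libraries, at 71 and 72 reads, were above all 4 light libraries, at 29 to 45 reads. With no filter on low values its log2 fold change at 1000 lux was -0.39 (SE 0.12, limma adjusted p = 0.0927), not called. pho-5 (NCU08325) reached 0.324 and 0.534 RPKM under 1000 lux and 0.908 and 0.604 under 5000 lux, from dark values of 0.287 and 0.539. The 5000 lux libraries were highest, but their log2 fold change against darkness with no filter was 0.31 (SE 0.16, limma adjusted p = 0.302). These rest on few reads, from 14 to 51 per library; 14 reads have an exact Poisson 95% interval of 7.65 to 23.5 reads, for counting error only.

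A pattern chosen after the values had been seen was shared by several of these genes. In hak-1, nca-3, pho-3, tcu-1, tcu-2 and tcu-3, or 6 of the 13 (46.2%), both 1000 lux libraries were above the other 4, which held for 11.3% of all genes tested. As the pattern was picked from these values, the share is a description. eas, the main conidial marker by level, had the opposite order, at 70.6 and 76.1 RPKM at 1000 lux against 169 to 231 in the other 4 libraries, and its part in the pattern was not tested.

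Genes named cax, trk and ph7 carry no number after a hyphen and so fell outside the rule; they were added after the symbols of the table had been seen. cax (NCU07075), which encodes a vacuolar calcium and proton exchanger, gave 16.1 and 15.9 RPKM in the dark libraries, 8.003 and 9.92 under 1000 lux and 12.3 and 14.6 under 5000 lux. Its 1000 lux libraries were lowest and no conditions overlapped. It fell by 0.78 on the log2 scale at 1000 lux (SE 0.12, limma adjusted p = 0.0033), a call kept without each library in turn (-0.92 to -0.64). At 5000 against 1000 lux its difference of 0.54 just missed the threshold (limma adjusted p = 0.0502). The potassium transporter gene trk was at 3.73 to 4.55 RPKM and ph7 at 5.28 to 8.87 RPKM, and neither was called in any comparison.

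Other genes of ion and nutrient handling were described by lists of symbols. The vacuolar proton ATPase acidifies the vacuole and drives exchangers there. None of its 14 genes was called by limma in any comparison, and voom called 0 too. At an unadjusted p under 0.05, 2 were higher and 2 lower at 1000 lux against darkness, 1 was lower at 5000 lux, and 0 differed between the light intensities. Over all genes tested, that unadjusted threshold was passed by 16.4% higher and 14.6% lower at 1000 lux against darkness. At 5000 lux against darkness it was passed by 15.3% higher and 9.6% lower. Between the light intensities it was passed by 9.42% higher and 6.16% lower, and voom called 2.59% higher and 1.75% lower. Against darkness voom called 9.73% of all genes higher and 9.5% lower at 1000 lux, and 7.82% higher and 4.23% lower at 5000 lux. Their log2 fold changes against darkness ran from -0.34 to 0.24 over both intensities, with medians of 0.011 and -0.015, near those of all genes tested.

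Of 18 listed calcium signalling genes, 9 were in the table under those symbols, and all 9 were tested. At 1000 lux 1 was higher and 0 lower by limma, and at 5000 lux 2 were higher and 0 lower. The higher shares are 11.1% at 1000 lux, near the 9.13% of all genes tested, and 22.2% at 5000 lux, against 6.7%. cnb-1, the regulatory subunit gene of the calcium-dependent phosphatase calcineurin, went from 91.8 and 87.6 RPKM in darkness to 120.2 and 117 at 1000 lux and 111 and 109 at 5000 lux. It was higher at both intensities, by 0.40 on the log2 scale at 1000 lux (SE 0.077, limma adjusted p = 0.00764) and by 0.29 at 5000 lux (SE 0.077, limma adjusted p = 0.0416). camk-4, a calcium- and calmodulin-dependent kinase gene, was higher at 5000 lux (0.32, SE 0.088, limma adjusted p = 0.047). Both 5000 lux calls were lost whichever of the 6 libraries was left out (0.26 to 0.33 for cnb-1, 0.28 to 0.36 for camk-4), and the 1000 lux call of cnb-1 was kept in 5 of the 6. At an unadjusted p under 0.05 against darkness, 3 of the 9 were higher at each intensity and 0 lower. For all genes tested the matching higher shares were 16.4% (1000 lux) and 15.3% (5000 lux), and the lower shares 14.6% and 9.6%. Voom called 2 of the 9 higher at each intensity and 0 lower. Its all-gene shares, in the same order, were 9.73% and 7.82% for higher, 9.5% and 4.23% for lower. In a list of 9 genes, 0 lower is near these shares and gives no direction. The Golgi pump gene pmr-1 stayed between 21.05 and 24.6 RPKM.

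Of the regulators of phosphate acquisition, nuc-1, nuc-2 and preg were in the table. nuc-1 stood at 27.95 and 25.2 RPKM without light, 19.7 and 21.0 under 1000 lux, then 21.0 and 20.4 under 5000 lux, both dark libraries above all light libraries. It was lower at 1000 lux (log2 fold change -0.37, SE 0.095, limma adjusted p = 0.0278), and at 5000 lux it had -0.34 (limma adjusted p = 0.0502), not called. The 1000 lux call was kept without 1 of the 6 libraries and lost without each of the other 5 (-0.44 to -0.29 over the 6). The 5000 lux value passed with voom and at an unadjusted p under 0.05. nuc-2, which acts upstream of nuc-1, and preg, a cyclin-like inhibitor, were not called. The 8 listed pH signalling symbols matched 0 genes of the table.

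Among 6 other nutrient permease genes, 1 was higher and 1 lower at 1000 lux, and 1 was higher at 5000 lux. Each is 16.7% of 6 genes, where all genes tested had 9.13% higher and 7.82% lower at 1000 lux and 6.7% higher at 5000 lux, so 1 call in 6 genes is near the background. cys-14, a sulfate permease gene, reached 65.0 and 52.5 RPKM under 1000 lux and 65.3 and 56.3 under 5000 lux, from dark values of 41.5 and 45.3, with every light library above darkness. It was higher by 0.42 on the log2 scale at 1000 lux (SE 0.12, limma adjusted p = 0.0374) and by 0.47 at 5000 lux (SE 0.12, limma adjusted p = 0.0335), calls kept without 4 and 2 of the 6 libraries, with values from 0.27 to 0.57 and from 0.37 to 0.58. pmg, the general amino acid permease gene, had 3.70 and 4.37 RPKM in darkness and 2.21 and 1.99 at 1000 lux, lower at -0.70 (SE 0.18, limma adjusted p = 0.0288), kept without 3 of the 6 libraries (-0.79 to -0.60). mtr, pmb, nit-10 and aap-2 were not called. At 1000 lux against darkness mtr had -0.27 (SE 0.086, limma adjusted p = 0.0602), and its libraries in these conditions did not overlap. There voom called 1 of the 6 higher and 2 lower, as did an unadjusted p under 0.05. All genes tested had 9.5% lower with voom and 14.6% lower at that unadjusted threshold. None of the 6 was lower at 5000 lux against darkness by limma, by voom or at an unadjusted p under 0.05. The matching lower shares of all genes tested were 2.92%, 4.23% and 9.6%, so 0 of 6 genes is near the background. Between 5000 and 1000 lux, limma and voom called 0 of the calcium signalling, phosphate regulator and permease genes in either direction. At an unadjusted p under 0.05, 1 calcium signalling gene was higher and 1 lower, 1 permease gene was higher, and no phosphate regulator differed. Of all genes tested, limma called 1.66% higher and 1.36% lower between the light intensities, and voom 2.59% and 1.75%. The unadjusted threshold was passed by 9.42% higher and 6.16% lower. In lists this short, 0 or 1 gene is near these shares.

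**Figure D4:**
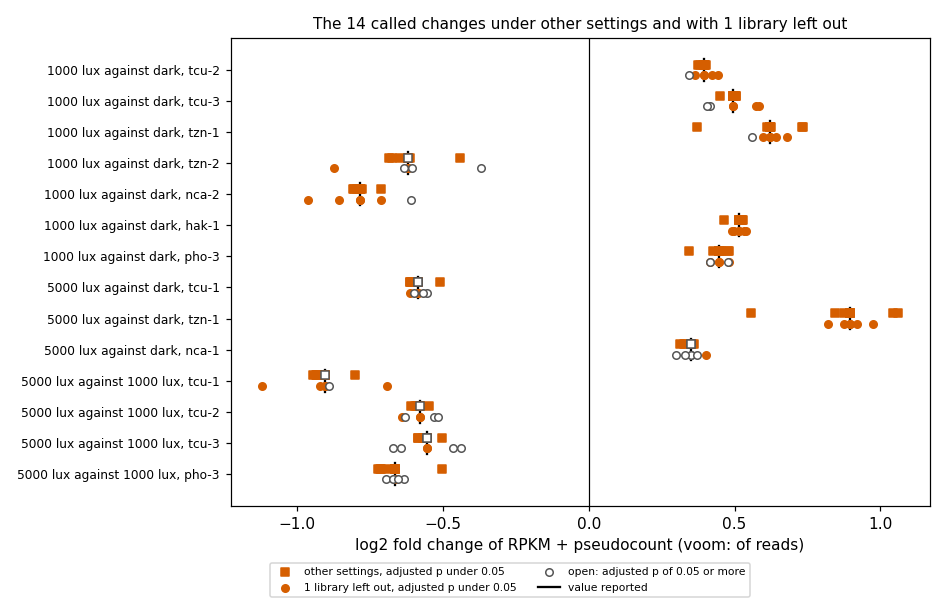
Log2 fold change (horizontal axis) of the 14 called changes under 10 other settings (squares) and with each of the 6 libraries left out (circles); the black bar is the value reported and open symbols have an adjusted p of 0.05 or more. All values keep their side of 0, and only hak-1 at 1000 lux and tzn-1 at 5000 lux against dark have no open circle.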

How the data were processed

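The values analysed are RPKM, deposited by the authors for the 6 libraries in 1 table that holds all genes. The submitters' processing notes name CASAVA 1.8 and HISAT, without roles. The sources used here do not give the counting tool, its strand setting, the genome build or the annotation, so no coordinates are printed. All 15 members matched a RefSeq gene table of the NC12 assembly. It was used for locus tags and overlaps, and its gene lengths for the library denominators.

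Denominators were recovered from the steps of the RPKM values and the reference gene lengths. The length behind each gene's values was then inferred as the smallest whole number that gave whole reads in all libraries. Whole reads were recovered in this way, within 0.005 reads plus a relative 3e-07, for 9772 of the 9773 genes above 0. Intervals from reads cover counting error only.

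Values were tested as log2(RPKM + 1) with limma 3.58.1 (R 4.3.3) across the 7841 genes reaching 1 RPKM in 2 or more libraries, with a variance trend, all 3 groups in 1 fit and Benjamini-Hochberg adjustment over all genes of a comparison. The fit was also run on simulated counts that had the same spread setting for every gene. That run does not show how the test performs on genes whose replicates differ more. Alternatives were other pseudocounts, filters, scalings and variance models, a replicate block, leaving out each library and, added after the data had been seen, voom on recovered reads. Figures used Python 3.11.15 and matplotlib 3.10.9.

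Members and lists were chosen with earlier results of these data known. The rule for named genes takes every member with its values, the deleted genes, up to 2 called genes per list, direction and comparison, and the 3 genes most like tzn-1.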

Additional observations from a re-analysis of the deposited data

Results flagged for a closer look

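In 4 genes the changes from darkness at the 2 light intensities differed by the test of that difference, 5000 lux against 1000 lux. The log2 difference (5000 minus 1000 lux) was -0.91 for tcu-1, -0.66 for pho-3, -0.58 for tcu-2 and -0.55 for tcu-3. Each of these calls was lost in some fits that left out a light library, and the 3 tcu calls were also lost without the variance trend. No explanation of these differences was tested.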

How the results depend on the processing

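Of the 14 called changes, 8 kept their call under all 10 settings that keep every library, and 2 kept it without each library in turn. A fit without a library leaves 1 in its group, which is assumed to vary like the others. Without each library in turn, the counts at 1000 lux against dark ranged from 1 to 5 higher and from 0 to 3 lower, at 5000 lux against dark from 1 to 2 higher and from 0 to 1 lower, and at 5000 against 1000 lux from 0 to 1 higher and from 0 to 4 lower. The counts over all genes tested also moved in these fits. With no filter on low values, 1 member was lower at 1000 lux and 0 at 5000 lux against dark. Over all genes, 456 and 123 were lower there, where the reported fit had 613 and 229. Without the variance trend, 1 was higher and 0 lower at 5000 lux against dark, and 1 was lower at 5000 against 1000 lux. All genes gave 337, 142 and 27 there, from 525, 229 and 107. With only the groups compared, 1 was higher at 5000 lux against dark and 1 at 5000 against 1000 lux. All genes gave 476 and 204 there, from 525 and 130. The cause was not tested.

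The sign turned only in differences that were not called. For pma-1 at 5000 lux against dark the log2 difference was -0.023 with median-of-ratios scaling, -0.0059 with quantile normalization, -0.0047 with voom, and -0.14 to 0.14 without single libraries. For ena-1 at 5000 against 1000 lux it was 0.0015 with a pseudocount of 5 RPKM and -0.26 to 0.26 without single libraries. Without single libraries it ran from -0.34 to 0.089 for pho-2 and from -0.10 to 0.18 for pma-1 at 1000 lux against dark. At 5000 lux against dark it ran from -0.18 to 0.057 for tcu-3 and from -0.39 to 0.12 for tzn-2, and for pho-2 at 5000 against 1000 lux from -0.23 to 0.026.

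With the replicate number as a block (replicate block) the counts were 5 and 2, 2 and 1, and 0 and 4, as without it. The deviations of same-numbered libraries correlated at 0.0282, -0.0872 and 0.0515 over genes in the 3 pairs of conditions. Such correlations cannot tell whether these libraries shared anything besides a number, since a weak effect or one limited to few genes could leave them low. Depth limits pho-4 and pho-5 most.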
